A study of Mus musculus with 56 samples.

Results

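The gasdermin genes examined here were Gsdma, Gsdmc, Gsdmc2, Gsdmc3, Gsdmc4 and Gsdmd, 6 genes in all. They were chosen from the measured fall of Gsdmc2 in irradiated colon, so the changes from 0 h in colon describe the choice and carry no p-value. Of the 45101 probe sets of the Affymetrix mouse array, 6 were annotated to these genes, and they covered 5 of the 6. Probe set 1454883_at was annotated to Gsdmc2 alone. Probe set 1430641_at was shared by Gsdmc2 and Gsdmc4, and 1419591_at by Gsdmc2 and Gsdmc, so their signals cannot be split between the 2 genes named on each. Gsdma had 2 probe sets (1423634_at and 1457777_at), Gsdmd had 1428767_at, and none was annotated here to Gsdmc3.

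RNA came from whole colon and whole jejunum of BALB/C mice, either wild type (WT) or lacking the cytokine Tweak (KO), taken 0, 6 and 24 h after 3 Gy of ionizing radiation, with 1 mouse behind each of the 56 arrays. Whether the same mice gave both tissues was not tested, so colon and jejunum may not be independent sets of animals. Tweak, encoded by Tnfsf12, belongs to the TNF family. In order of time, WT colon had 5, 4 and 4 arrays and KO colon 5, 5 and 5, while WT jejunum had 5, 5 and 4 and KO jejunum 5, 4 and 5. The labels give neither age nor sex, do not say how the knockout was made, and do not state whether the 0 h mice were irradiated. The number of arrays limits the precision. The array file names fall into 2 series, and all WT arrays lay in the first and all KO arrays in the second, except replicate 1 of KO 0 h in each tissue.

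Gasdermins are proteins held in an inactive form until a protease cuts them, after which the freed amino-terminal part opens pores in the cell membrane. Gsdmd is the gasdermin cut by inflammatory caspases, and its pores release interleukin cytokines and can end in the lytic death called pyroptosis. The mouse Gsdmc genes lie as near neighbours in a cluster on chromosome 15 and are known from the epithelium of the large intestine and, in worm infection, from small intestine exposed to type 2 cytokines. Gsdma is known from skin and other stratified epithelia and lies on chromosome 11.

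Values are given on the log2 scale of the array signal. Changes are differences between the means of 2 groups, with the SE from 1 limma fit to the 28 arrays of a tissue. A probe set was called when its adjusted p (Benjamini-Hochberg over 33825 probe sets) was under 0.05. The 6 h and 24 h comparisons of a genotype share their 0 h arrays and are not independent. The lowest possible signal, the floor, was 2.28 in colon and 2.32 in jejunum. Both tissues had been normalized apart, so levels in colon and jejunum stand side by side without a test, and levels of different probe sets are not set against each other.

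The probe set of the targeted gene that Tnfsf12 shares only with its read-through transcript Tnfsfm13 lay between 3.71 and 4.67 in the 13 WT colon arrays and between 2.28 and 2.81 in the 15 KO ones, and between 2.77 and 4.09 and between 2.34 and 2.75 in the 14 arrays of each genotype in jejunum, without overlap. Some arrays stood apart from their groups in genes other than gasdermins. KO colon 0 h replicate 3 had a mean of 7.79 over 19 genes activated by p53, the damage-response factor, while the other 9 colon arrays at 0 h lay between 6.54 and 6.75 and the 18 irradiated ones between 7.70 and 8.28. WT colon 0 h replicate 2 had a mean of 10.01 over 18 genes of small intestinal enterocytes, against 4.71 to 7.30 in the other 27 colon arrays. KO colon 24 h replicate 2 and KO jejunum 0 h replicate 3 carried Y-linked Eif2s3y at 8.62 and 8.42, where the other 4 arrays of each group stayed at 2.28 and between 2.32 and 2.37. In jejunum, KO 0 h replicate 3 and WT 24 h replicate 2 had Fabp6, the ileal bile acid binding protein, at 15.33 and 15.28. Xist, which is expressed from the inactive X, was low in both arrays with Eif2s3y (3.02 and 2.53). It was also low, without Eif2s3y signal, in WT colon 0 h replicate 2 (3.87), KO colon 0 h replicate 2 (4.01) and WT jejunum 0 h replicate 2 (2.35), where the other arrays of each group lay between 10.83 and 12.75. The labels of KO colon 0 h replicate 3, KO colon 24 h replicate 2 and KO jejunum 0 h replicate 3 are thus in doubt, and values of these KO groups hold only as far as the labels do.

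The Gsdmc2 probe set was strongly expressed in colon and lower at 24 h in both genotypes. WT arrays read 10.57, 11.09, 11.49, 11.38 and 10.98 at 0 h, then 11.19, 11.39, 10.48 and 11.03 at 6 h, and 10.26, 10.28, 9.81 and 10.08 at 24 h. Every WT array at 24 h was below every WT array at 0 h, while the 6 h and 0 h arrays overlapped. KO arrays read 10.85, 10.54, 10.09, 10.90 and 11.56 at 0 h, 10.40, 9.96, 10.47, 9.91 and 10.59 at 6 h, and 9.87, 8.89, 10.04, 9.68 and 9.0 at 24 h. The KO groups at 24 h and 0 h did not overlap either, although the lowest array at 0 h (10.09, the one with p53 targets at the irradiated level) lay just above the highest at 24 h (10.04).

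The Gsdmc2 means differed by -0.99 ± 0.263 between 24 h and 0 h in WT (1.99-fold lower) and by -1.29 ± 0.248 in KO (2.45-fold lower). At 6 h the differences from 0 h were -0.08 ± 0.263 in WT and -0.53 ± 0.248 in KO. In order of level, the group means were 11.10 ± 0.363 (SD, n = 5) for WT 0 h, 11.03 ± 0.391 (n = 4) for WT 6 h, 10.79 ± 0.539 (n = 5) for KO 0 h, 10.26 ± 0.309 (n = 5) for KO 6 h, 10.11 ± 0.216 (n = 4) for WT 24 h and 9.50 ± 0.521 (n = 5) for KO 24 h. The arrays of each group overlapped those of its neighbour in that order. Without KO 0 h replicate 3 the KO value at 24 h was -1.47, and without KO 24 h replicate 2 it was -1.14. In whole tissue, fewer cells that express Gsdmc2 and less Gsdmc2 RNA per cell cannot be told apart.

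The probe set shared by Gsdmc2 and Gsdmc4 was lower at 24 h as well. WT arrays read 10.86, 11.12, 11.59, 11.54 and 11.15 at 0 h and 10.15, 9.88, 9.65 and 9.50 at 24 h, with no overlap. KO arrays read 10.77, 9.83, 10.31, 11 and 11.64 at 0 h and 10.00, 9.18, 10.14, 10.04 and 9.40 at 24 h, and here replicate 2 at 0 h, one of the arrays with low Xist, fell among the 24 h arrays. The differences were -1.46 ± 0.291 in WT (2.74-fold lower) and -0.95 ± 0.274 in KO (1.94-fold lower). At 6 h they were 0.06 ± 0.291 and -0.24 ± 0.274.

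The probe set shared by Gsdmc2 and Gsdmc also had its lowest means at 24 h. Its WT arrays lay between 8.06 and 8.97 at 0 h, between 8.0 and 9.10 at 6 h and between 7.48 and 7.94 at 24 h. Its KO arrays lay between 7.63 and 8.94 at 0 h, between 6.94 and 8.44 at 6 h and between 7.14 and 7.56 at 24 h. In both genotypes all arrays at 24 h were below all at 0 h, with differences of -0.87 ± 0.270 in WT and -0.77 ± 0.255 in KO. The 3 gasdermin C probe sets share Gsdmc2, so their likeness is not that of 3 separate genes.

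**Figure D1:**
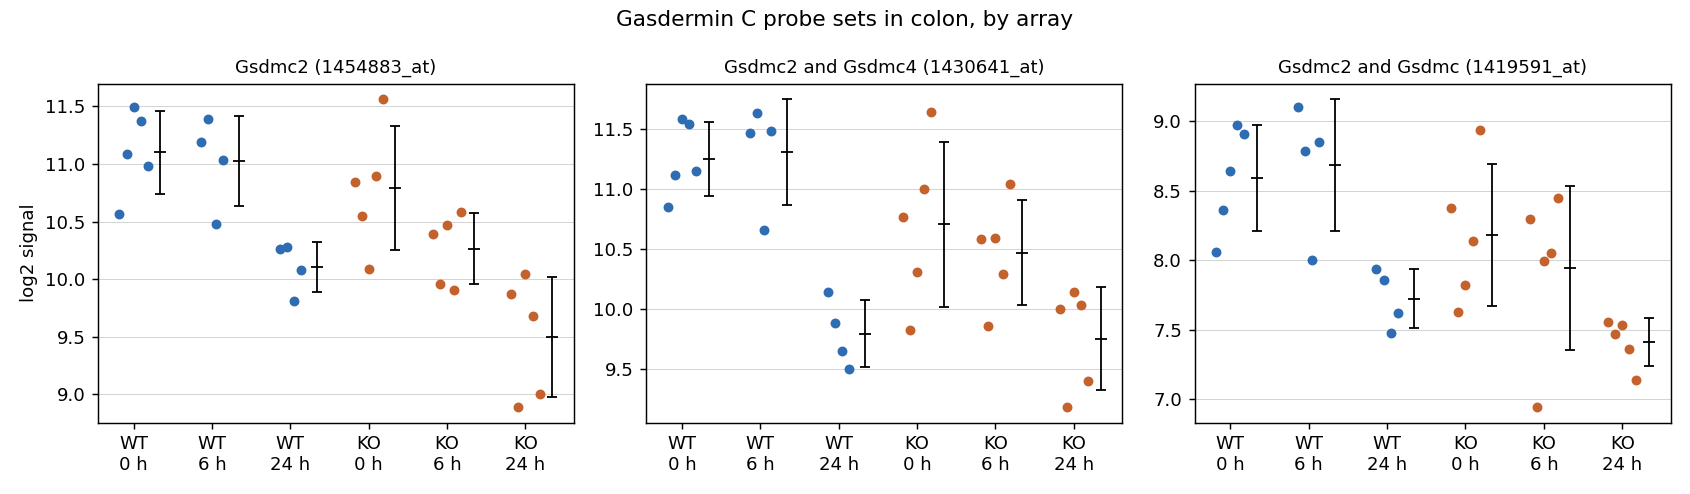
Log2 signal of the 3 gasdermin C probe sets in colon, 1 panel each, with 1 point per array (WT blue, KO orange) and the group mean ± SD as a black bar. Within each genotype the means at 24 h are the lowest, while single KO arrays at 0 or 6 h lie among or below the 24 h arrays, and for Gsdmc2 the 24 h arrays run from 9.81 to 10.28 in WT and from 8.89 to 10.04 in KO.

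Gsdmd, the gasdermin of inflammatory caspases, went the other way in colon. WT arrays read 8.43, 9.03, 8.67, 8.73 and 8.79 at 0 h, 8.83, 9.12, 8.97 and 8.88 at 6 h, and 9.05, 9.32, 9.38 and 9.48 at 24 h. All WT arrays at 24 h were above all at 0 h. KO arrays read 8.82, 8.93, 9.12, 8.78 and 8.81 at 0 h, 8.85, 9.06, 9.08, 8.91 and 8.97 at 6 h, and 9.28, 8.95, 9.43, 9.37 and 9.53 at 24 h. The KO groups overlapped through 2 arrays that stood apart, KO 24 h replicate 2 (8.95) and KO 0 h replicate 3 (9.12). The differences at 24 h were 0.58 ± 0.114 in WT (1.49-fold higher) and 0.42 ± 0.107 in KO (1.34-fold higher), and the KO value was 0.57 without the 3 colon arrays that stood apart. At 6 h they were 0.22 ± 0.114 in WT and 0.08 ± 0.107 in KO. A list of 15 macrophage and neutrophil genes, which includes known sources of Gsdmd, had means of 5.24 to 5.42 at 0 h and 5.29 to 5.66 at 24 h in WT, and of 5.17 to 5.55 and 5.26 to 5.72 in KO. The part of such cells in the Gsdmd values was not tested.

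**Figure D2:**
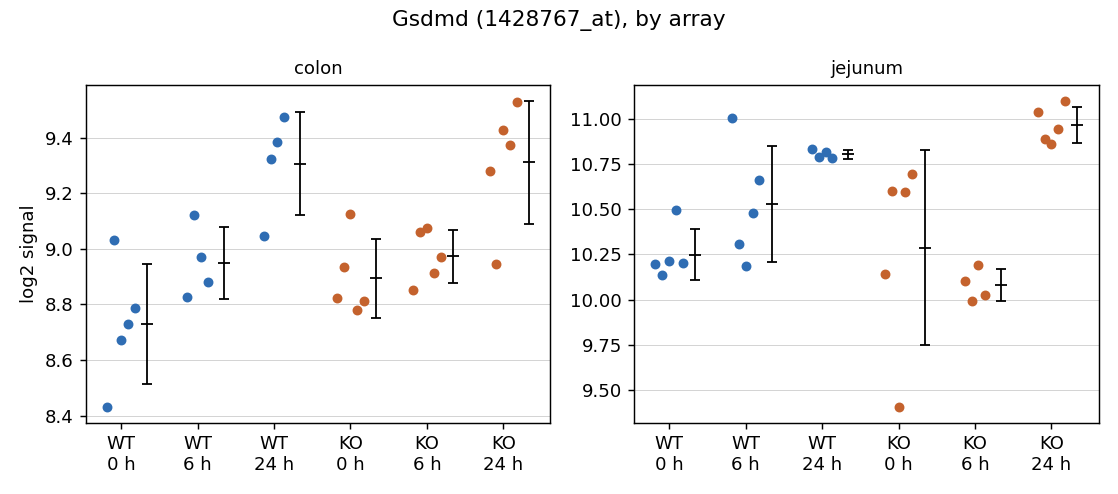
Log2 signal of Gsdmd in colon and in jejunum, normalized apart, with 1 point per array (WT blue, KO orange) and the group mean ± SD as a black bar. In both tissues the 24 h groups have the highest means, 9.31 in both genotypes in colon and 10.80 (WT) and 10.97 (KO) in jejunum.

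Gsdma, the gasdermin of stratified epithelia, stayed near the floor. Its probe set 1423634_at ranged from 2.33 to 2.71 over the 28 colon arrays and from 2.32 to 2.56 over the 28 jejunum arrays, and 1457777_at from 2.28 to 2.40 and from 2.32 to 2.48. The 3 highest colon values of 1423634_at were 2.71, 2.67 and 2.64, of which 2 came from WT 24 h and 1 from KO 24 h. At such levels a change in the RNA cannot be read. A further 11 probe sets, annotated to Gsdma2 and to the gasdermin C-like genes and pseudogene of the chromosome 15 cluster, were at most 3.18 in colon and 4.15 in jejunum. Not all of their signals thus stood near the floor.

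All 6 probe sets passed the filter on low signal in colon, the Gsdma ones only just. Against 0 h, 3 of the 6 were called in WT colon at 24 h (Gsdmc2 and the Gsdmc2 and Gsdmc4 set lower, Gsdmd higher), where 2.00% of all probe sets were called, and 1 of the 6 in KO colon at 24 h (Gsdmc2, lower), where 0.0591% were. None of the 6 was called at 6 h, where 0.934% of all probe sets were called in WT and 0.636% in KO. Separation of every array at 24 h from every array at 0 h was seen for 3 members downward in WT (1.21% of all probe sets), 2 downward in KO (0.364%) and 1 upward in WT (2.14%). Because Gsdmc2 was chosen on these changes, the counts are given beside the background and nothing is read from them. The single KO call was lost when any 1 of 8 of the 10 arrays compared was left out, all but KO 0 h replicate 3 and KO 24 h replicate 3.

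The differences between genotypes in colon were tested, although they use the same arrays as the changes described above. Gsdmc2 was lower in KO than in WT by 0.31 ± 0.248 at 0 h (limma adjusted p = 0.632), 0.76 ± 0.263 at 6 h (adjusted p = 0.284) and 0.61 ± 0.263 at 24 h (adjusted p = 0.556) as differences of means, and no call was made. The 95% intervals of KO minus WT ran from -0.82 to 0.20, from -1.31 to -0.22 and from -1.15 to -0.07, without adjustment for the number of probe sets. The 0 h value was -0.14 without KO 0 h replicate 3, the library labelled 0 h whose p53 targets were at the irradiated level, and -0.51 without KO 0 h replicate 5. The Gsdmc2 and Gsdmc4 set differed by -0.54 ± 0.274, -0.84 ± 0.291 and -0.04 ± 0.291 at 0, 6 and 24 h (limma adjusted p = 0.407, 0.290 and 1), and without KO 0 h replicate 2 its 0 h value was -0.32. The Gsdmc2 and Gsdmc set differed by -0.41 ± 0.255, -0.74 ± 0.270 and -0.31 ± 0.270 (limma adjusted p = 0.515, 0.330 and 0.868), with -0.27 at 0 h without KO 0 h replicate 2 and -0.49 at 6 h without KO 6 h replicate 2. Gsdmd differed by 0.16 ± 0.107, 0.02 ± 0.114 and 0.00 ± 0.114 (limma adjusted p = 0.534, 1 and 1), and its 0 h value was 0.09 with WT 0 h replicate 1 left out and 0.11 with KO 0 h replicate 3 left out. None of the 6 member probe sets was called between genotypes at 0, 6 or 24 h, where 1.08%, 0.636% and 0.423% of all probe sets were. With the array series as a term the Gsdmc2 differences were -0.26, -0.69 and -0.54, and those of the Gsdmc2 and Gsdmc set -0.21, -0.49 and -0.06, values that rest on 1 KO array of the first series.

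KO colon at 6 h also held more skeletal muscle RNA than KO colon at 0 h, with means over 10 muscle genes of 5.05 to 6.79 against 3.26 to 3.67. WT arrays at 6 h lay between 3.37 and 6.21 and overlapped the KO ones. Of these genes, 9 of 10 were called higher in KO at 6 h against 0 h, where 0.636% of all probe sets were called. In KO against WT at 6 h, 1 of 10 was called higher, beside 0.636% of all probe sets. Means over 16 genes of squamous epithelium were 3.54 to 5.64 in KO at 6 h, 2.91 to 3.35 in KO at 0 h and 3.25 to 5.20 in WT at 6 h, with 0 of 16 called by limma and a median difference of 1.78 in KO. The part of such tissue in the 6 h gasdermin values was not tested. The KO change minus the WT change was -0.45 ± 0.362 at 6 h and -0.30 ± 0.362 at 24 h for Gsdmc2, 0.50 ± 0.400 at 24 h for the Gsdmc2 and Gsdmc4 set, and -0.16 ± 0.156 at 24 h for Gsdmd. These differences are built from the changes on which the genes were chosen and are given as values only.

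**Figure D3:**
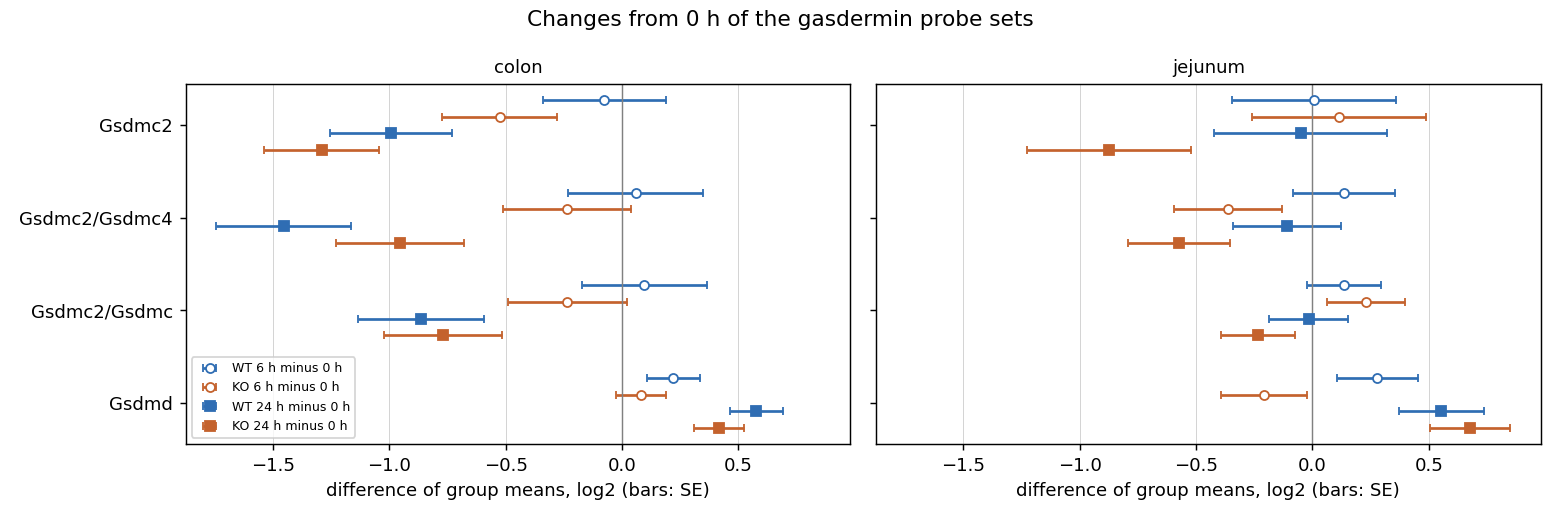
Differences of group means from 0 h on the log2 scale with SE, for 4 gasdermin probe sets in colon and jejunum (WT blue, KO orange, open circles 6 h, filled squares 24 h). In colon the gasdermin C sets lie at -0.77 to -1.46 and Gsdmd at 0.42 to 0.58 at 24 h, and in jejunum Gsdmd lies at 0.55 and 0.68.

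In jejunum, which the choice of genes did not use, Gsdmd was again highest at 24 h. WT arrays read 10.20, 10.14, 10.22, 10.49 and 10.20 at 0 h, 11.01, 10.31, 10.19, 10.48 and 10.66 at 6 h, and 10.83, 10.79, 10.82 and 10.78 at 24 h. KO arrays read 10.14, 10.60, 9.41, 10.59 and 10.70 at 0 h, 10.11, 9.99, 10.19 and 10.03 at 6 h, and 11.04, 10.89, 10.86, 10.94 and 11.10 at 24 h. In both genotypes every array at 24 h was above every array at 0 h, a separation that 1.48% of all probe sets showed in WT and 0.899% in KO. The KO 24 h arrays were also all above the WT 24 h arrays, as were 2.80% of all probe sets, with a difference of means of 0.16 ± 0.184 (limma adjusted p = 0.870).

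The Gsdmd differences at 24 h in jejunum did not pass the test across all probe sets. They were 0.55 ± 0.184 in WT (95% interval 0.18 to 0.93, limma adjusted p = 0.193) and 0.68 ± 0.173 in KO (0.32 to 1.03, adjusted p = 0.102), or 1.47-fold and 1.60-fold higher. At 6 h they were 0.28 ± 0.173 in WT and -0.21 ± 0.184 in KO (limma adjusted p = 0.708 and 0.787). KO at 6 h was lower than WT at 6 h by 0.45 ± 0.184 as a difference of means (limma adjusted p = 0.255). The KO value at 24 h was 0.46 in jejunum without KO 0 h replicate 3, the array with the lowest Gsdmd, and 0.34 (limma adjusted p = 0.515) without the arrays with Fabp6 above 5. Means over the macrophage and neutrophil genes in jejunum were 4.30 to 4.86 at 0 h and 4.69 to 5.01 at 24 h in WT, and 4.57 to 4.76 and 4.76 to 5.13 in KO, and their part in the Gsdmd values was not tested.

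The gasdermin C probe sets were at or near their lowest signals in most jejunum arrays. Gsdmc2 lay between 2.32 and 2.50 in the 14 WT arrays and between 2.32 and 2.36 in the 5 KO arrays at 24 h. KO arrays at 0 h read 3.43, 2.54, 5.28, 2.49 and 2.37, and KO arrays at 6 h read 4.04, 3.79, 2.39 and 3.12. The KO 24 h arrays were thus all below the KO 0 h arrays, as were 2.18% of all probe sets, with a difference of -0.87 ± 0.352 (limma adjusted p = 0.371) that was -0.36 without KO 0 h replicate 3. KO minus WT was 0.84 ± 0.352 at 0 h, 0.94 ± 0.373 at 6 h and 0.01 ± 0.373 at 24 h (limma adjusted p = 0.577, 0.239 and 1), and the 0 h value was 0.32 (adjusted p = 0.883) without KO 0 h replicate 3. The Gsdmc2 and Gsdmc set was above 2.5 in KO 0 h replicate 3 (3.45), in all 4 KO arrays at 6 h (2.60, 2.98, 2.86 and 2.68) and in WT 6 h replicate 4 (3.07). The Gsdmc2 and Gsdmc4 set lay between 3.07 and 4.06 except for 5.22 in KO 0 h replicate 3.

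Of the 5 member probe sets that passed the filter in jejunum, none was called in any comparison. The backgrounds there were 0.237% and 0.517% of all probe sets called for WT at 6 and 24 h against 0 h, 0.302% and 0.257% for KO, and 0.154%, 1.19% and 0.426% for KO against WT at 0, 6 and 24 h. For the KO change minus the WT change, limma called 0 of 33825 probe sets at 6 h and at 24 h, with 1416 and 1458 at an unadjusted p under 0.05.

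Jejunum arrays with Gsdmc2 above 3 all had raised Fabp6, and all were KO. Fabp6, picked as a marker of position after the data were seen, was above 5 in 10 of the 28 jejunum arrays and between 2.38 and 3.01 in the other 18. These 10 arrays also had the lower means over 18 small intestinal enterocyte genes, 10.80 to 12.24 against 12.34 to 12.92. Slc10a2, the ileal bile acid transporter, and Fgf15, the ileal hormone that answers bile acids, were high only in KO 0 h replicate 3 (8.83 and 6.93) and WT 24 h replicate 2 (8.25 and 8.80) and at most 3.71 and 4.02 in the other 8 of the 10. In those 8 arrays Fabp6 was the only one of these 3 genes above 5. Gsdmc2 was above 3 in 5 of the 10 and in none of the 18, where its highest value was 2.54. The 5 were all KO and all among the 7 such arrays taken at 0 or 6 h. The WT array of those 7, 6 h replicate 4 with Fabp6 at 10.22, had Gsdmc2 at 2.50. In the 3 taken at 24 h, with Fabp6 at 15.28, 11.46 and 5.93, Gsdmc2 read 2.32, 2.36 and 2.35. KO 0 h replicate 3 and WT 24 h replicate 2, with nearly equal Fabp6, thus had Gsdmc2 at 5.28 and 2.32, and they also differ in genotype, time and Y-linked RNA. All 4 KO arrays at 6 h and only 1 of the 5 WT arrays at 6 h were among the 10, so genotype and whatever raised Fabp6 cannot be told apart at 6 h. At 0 h, KO replicates 1 and 3 were among the 10 and no WT array was, so for those arrays they cannot be told apart either. Without the 10 arrays, KO minus WT for Gsdmc2 at 0 h was 0.08. That removal took out KO 0 h replicates 1 and 3 (3.43 and 5.28), the only 0 h arrays with Gsdmc2 above 3. The smaller value was thus fixed by the removal, and nothing is read from it.

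Gsdme, a gasdermin outside the chosen genes and a known target of caspase-3, was measured by 2 probe sets, of which 1 followed Fabp6. That probe set, 1417903_at, lay between 6.18 and 9.42 in the 10 arrays with Fabp6 above 5 and between 4.12 and 5.51 in the other 18. WT 24 h replicate 2 and KO 0 h replicate 3 were highest, with 9.42 and 9.30. The other, 1421534_at, overlapped, with 4.98 to 6.43 in the 10 arrays and 2.57 to 5.61 in the 18. These arrays were grouped by what was measured in them, so no test was made. In colon 1417903_at lay between 4.33 and 6.41, and its differences at 24 h were 0.35 ± 0.285 in WT and -0.20 ± 0.268 in KO (limma adjusted p = 0.642 and 0.975). Those of 1421534_at were -0.63 ± 0.469 and -0.56 ± 0.442 (limma adjusted p = 0.590 and 0.878), so the probe sets of Gsdme differed in sign in WT and neither was called. Among the 10 arrays with Fabp6 above 5, Gsdmd read 10.79, 11.04 and 10.89 in the 3 taken at 24 h and 9.41 to 10.48 (median 10.11) in the 7 taken at 0 or 6 h. Among the other 18 it read 10.78 to 11.10 in the 6 taken at 24 h and 10.14 to 11.01 (median 10.40) in the 12 taken at 0 or 6 h, with overlap.

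**Figure D4:**
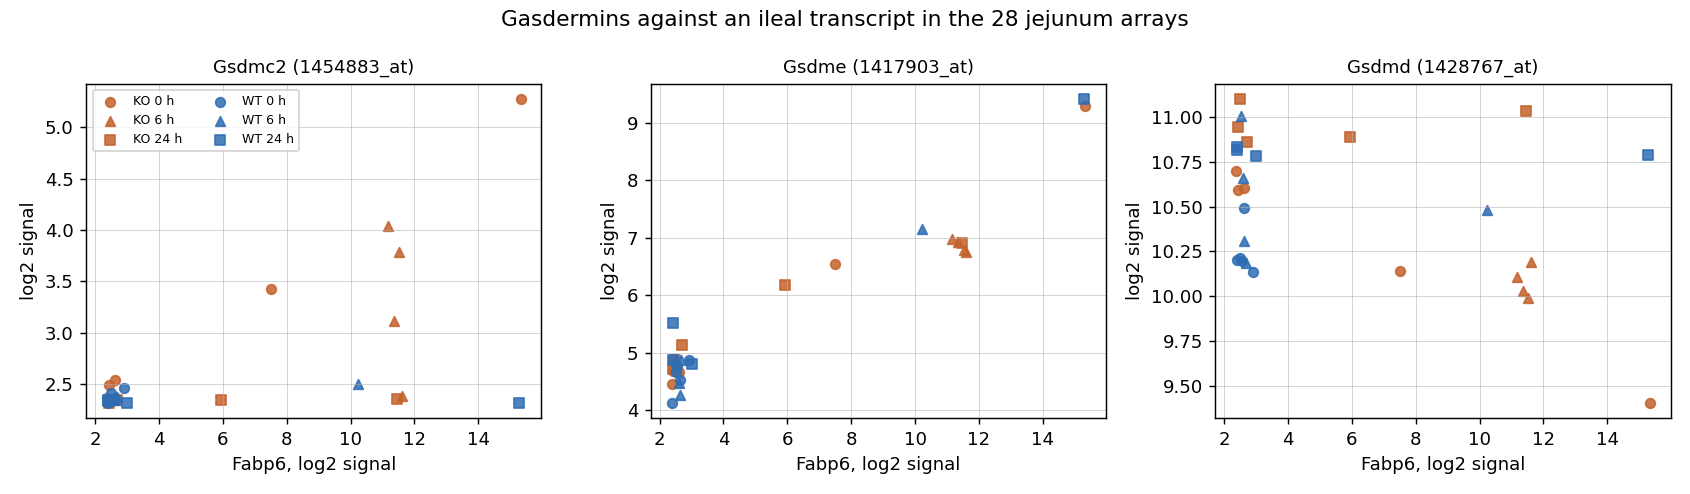
Log2 signals of Gsdmc2, Gsdme and Gsdmd against that of Fabp6 in the 28 jejunum arrays (WT blue, KO orange, circles 0 h, triangles 6 h, squares 24 h). Gsdmc2 exceeds 3 in 5 arrays, all KO, taken at 0 or 6 h with Fabp6 above 5. Gsdme is at least 6.18 in all 10 arrays with Fabp6 above 5, and Gsdmd is at least 10.78 in all 9 arrays taken at 24 h.

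Genes that act with the gasdermins were followed as lists drawn up with earlier results of these data known. Of 32 genes of the pyroptosis pathway (sensors, adaptor, caspases, other proteases, released cytokines), 22 were tested in colon. Casp4, which encodes the caspase that senses intracellular lipopolysaccharide and cuts Gsdmd, rose in WT colon from 6.79 ± 0.285 (SD, n = 5) to 7.50 ± 0.128 (n = 4) at 6 h and 7.62 ± 0.252 (n = 4) at 24 h. Its differences were 0.71 ± 0.164 and 0.83 ± 0.164 (limma adjusted p = 0.0309 and 0.00758), and all arrays at each later time were above all at 0 h. In KO colon, Casp4 read 7.27 ± 0.258 (SD, n = 5) at 0 h, 7.43 ± 0.113 at 6 h and 7.35 ± 0.358 at 24 h. The 0 h arrays include replicate 3, with p53 targets at the irradiated level. In KO against WT colon at 0 h, limma called 0 of the 22 genes, where 1.08% of all probe sets were called. The KO change minus the WT change for Casp4 was -0.56 ± 0.225 at 6 h and -0.75 ± 0.225 at 24 h (limma adjusted p = 0.573 and 0.668). The Casp4 call at 6 h was lost without WT 0 h replicate 1 (0.59) or 3 (0.73) and without any 1 of the 4 WT arrays at 6 h. When only the compared groups were fitted, both calls were lost (limma adjusted p = 0.164 and 0.175).

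Il18, a cytokine that leaves through gasdermin pores, was lower in KO than in WT colon at 6 h by 0.84 ± 0.182 as a difference of means (limma adjusted p = 0.0236). WT arrays at 6 h lay between 10.70 and 11 and KO arrays between 9.72 and 10.22, without overlap. These KO arrays are the ones with more muscle RNA than KO at 0 h, although in muscle RNA they overlapped WT at 6 h. That call was lost with the array series as a term (-1.30, limma adjusted p = 0.125), without WT 6 h replicate 1, 2 or 5 and without KO 6 h replicate 4 or 5. No other gene of the list was called in colon, and of 23 tested in jejunum limma called 0 in every comparison.

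None of 19 type 2 response genes tested in colon and 20 in jejunum, a list of cytokines, receptors, tuft cell genes and genes known to answer to them, was called in any comparison. Their median difference in WT colon at 24 h was 0.00, equal to that of all probe sets. Of 29 surface colonocyte genes, 1 was called in WT colon at 24 h and none in KO. It was Car4, a membrane carbonic anhydrase, which was higher by 0.50 ± 0.121 (limma adjusted p = 0.0282). The Car4 call was lost without WT 0 h replicate 1, 2 or 4 (0.0595 without replicate 2), without WT 24 h replicate 2, 3 or 5 and with only the compared groups (0.259). The median difference of the 29 at 24 h was 0.27 in WT and 0.03 in KO. Their mean level in WT lay between 10.68 and 11.34 at 0 h and between 11.22 and 11.42 at 24 h. In KO it lay between 11.03 and 11.27 at 0 h and between 11.10 and 11.27 at 24 h, so the list was not lower at 24 h. The wide WT range at 0 h includes replicate 2, the array high in enterocyte genes, whose part in these values was not tested. The part of surface colonocytes in the gasdermin values was not tested. In jejunum 28 surface colonocyte genes were tested, and Aqp4 was called lower in WT at 6 h (-1.50) and Slc20a1 higher in KO at 24 h (1.14). Emp1 and Abcb1a were called higher in KO than in WT at 6 h (1.15 and 2.75), under all 17 alternatives of the processing. The Aqp4 and Slc20a1 calls held under 10 and 4 of 19. All KO jejunum arrays at 6 h had Fabp6 above 5, so genotype and whatever raised Fabp6 cannot be told apart there. Of 13 genes of the Tgf-beta pathway, the receptor gene Tgfbr1 was higher in WT colon at 24 h (0.38 ± 0.10, limma adjusted p = 0.0447) and the inhibitor gene Smad7 in KO against WT at 0 h (0.32 ± 0.0691, adjusted p = 0.0200). The Tgfbr1 call was lost when any 1 of the compared arrays except WT 24 h replicate 5 was left out, without the low-signal filter (limma adjusted p = 0.0555) and with only the compared groups (0.184). The Smad7 call was lost without KO 0 h replicate 2 or 3 (limma adjusted p = 0.0603 and 0.0631) and with the array series as a term (0.757).

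Of 10 lymphocyte genes, the B cell genes Cd79a (-1.40 ± 0.369), Cd79b (-1.85 ± 0.475) and Ms4a1 (-1.82 ± 0.455) fell in WT colon at 24 h (limma adjusted p = 0.0463, 0.0399 and 0.0340), and limma called 0 of the 10 in KO. In KO against WT colon at 0 h, 2 of the 10 were called higher, where 1.08% of all probe sets were called. The part of lymphocytes in the gasdermin values was not tested. Of 15 mitosis genes tested in colon, 15 were called lower in WT at 24 h with a median of -1.80, where 2.00% of all probe sets were called. In KO colon at 24 h, 0 of 15 were called, where 0.0591% of all probe sets were, with a median of -0.93. Their means lay between 5.801 and 7.335 in the KO 0 h arrays, which include replicate 3 with p53 targets at the irradiated level. For the KO change minus the WT change, limma called 0 of the 15, of 1 probe set called in all. In jejunum at 24 h, where gasdermin C was near the floor in WT, 7 of 15 fell in WT and 3 in KO. Of 19 p53 targets, 17 and 14 rose in WT colon at 6 and 24 h and 16 and 8 in KO, against 10 and 9 in WT jejunum and 8 and 6 in KO jejunum. The gasdermin C sets in colon differed at 6 h from 0 h by -0.08 to 0.10 in WT and by -0.53 to -0.24 in KO. Any part of p53 or of dividing cells in the gasdermin values was not tested.

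The gasdermin probe sets were also compared with each other across the 28 arrays of each tissue, which share their groups and their normalization. In colon the Pearson r between the 3 gasdermin C sets was 0.868 to 0.923 (Spearman rho 0.910 to 0.922), and for deviations from the 6 group means it was 0.689 to 0.879. Gsdmd had r of -0.606 to -0.654 with them over the levels and of -0.264 to 0.0128 (rho -0.467 to -0.0619) over the deviations. In jejunum Gsdmd had r of -0.631 to -0.710 with the gasdermin C sets over the levels and of -0.622 to -0.789 over the deviations. Without KO 0 h replicate 3 the jejunum values were -0.441 to -0.561 and -0.241 to -0.555.

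The genes most like Gsdmc2 in colon, by Pearson r over 28 arrays among 13980 genes, were Ndufs5 (r = 0.809), Akirin2 (0.802), Thap4 (0.799), H2bc21 (0.786), Ndufs1 (0.777) and Dmbt1 (0.774). Ndufs5 and Ndufs1 encode subunits of respiratory complex I, and Dmbt1 a secreted mucosal scavenger receptor. Over the deviations from group means the 6 most alike were Fzr1 (0.719), Clic1 (0.689), Rilpl2 (0.675), Etfa (0.636), Smim7 (0.632) and Sap30 (0.631), none of them among the first 6. In jejunum the 6 most alike were Kbtbd3, Ulbp1, Acvr1c, Dusp18, Speer4f1 and Dsel, with r from 0.818 to 0.844. Without KO 0 h replicate 3 these values were 0.540 to 0.602, so the jejunum order rests largely on that 1 array.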

How the data were processed

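The authors deposited log2 signals, 1 table per tissue, and the submitters' processing notes name RMA and GCRMA without versions or the part each played. Both tissues had been normalized apart. The name of 1 colon column matches no sample title, and that column was not used, so KO colon 24 h replicate 3 was read from the deposited series value table, which held equal values for the other arrays. Its array series was set by elimination. Per array, 27.1% to 29.6% (colon) or 28.8% to 33.3% (jejunum) of signals stood at the floor.

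Per tissue, the 25% of probe sets with the lowest mean were left out, and limma 3.58.1 in R 4.3.3 (lmFit, eBayes with trend, two-sided) was fitted to 6 groups and 28 arrays, with Benjamini-Hochberg adjustment at 0.05 within each comparison. The fit was tested on simulated data. Lists used 1 probe set per gene, the one with the highest mean among those annotated to 1 gene. Named were all gasdermins, for some lists up to 6 called genes per comparison, and the 6 genes most like 1454883_at. The members, lists and comparisons were chosen with earlier results of these data known. Symbols came from the platform annotation, updated by Entrez ID, and gene neighbours from the order of RefSeq genes. Replicate numbers are shared across groups, but within a tissue each array was a different mouse, so they were not used as pairs. Whether colon and jejunum arrays of the same group and number shared a mouse was not tested. Alternatives were another filter, 1 probe set per gene, eBayes without trend, quantile normalization, only the compared groups, the replicate number or array series as a term, the series value table and arrays left out. Fabp6 and the sex-linked genes were picked after the data were seen, as were the removal of 10 jejunum arrays by Fabp6 and that of 3 colon arrays.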

Additional observations from a re-analysis of the deposited data

Results flagged for a closer look

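Within groups of 4 or 5 arrays, 6 gasdermin values lay farther from the rest of their group than Dixon's 95% limit allows, of 37 groups tested. Another 35 groups, all with a range under 0.3, were not tested, since their values stood near 1 level. Chance gives about 1 such value in 20 groups where values are normal and independent. Values tied near the floor and probe sets that share Gsdmc2 are not, so no excess over chance is read from these counts. KO jejunum 0 h replicate 3 was set apart by the Gsdmc2 and Gsdmc set (3.45, with the next array at 2.34) and by the Gsdmc2 and Gsdmc4 set (5.22, next 3.87). WT jejunum 6 h replicate 4 was set apart by the Gsdmc2 and Gsdmc set (3.07, with the others at 2.32), and WT jejunum 6 h replicate 3 by the Gsdmc2 and Gsdmc4 set (4.06, next 3.48). WT jejunum 0 h replicate 4 had the highest Gsdmd of its group (10.50, next 10.22). KO colon 24 h replicate 4 had Gsdma (1423634_at) at 2.64 with the next array at 2.35, near the floor.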

How the results depend on the processing

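Under every alternative tried, the colon changes of Gsdmc2 and Gsdmd at 24 h kept their direction, and they moved by less than the spread between replicates. Many alternatives could not move a difference of means: another filter, 1 probe set per gene, no trend, only the compared groups and the series value table. The array series as a term could not move the WT values, nor the replicate number the KO ones. This stability was thus partly fixed beforehand, and the genes were chosen on these colon changes. With arrays left out one at a time, Gsdmc2 lay between -1.13 and -0.90 in WT and between -1.47 and -1.10 in KO, and Gsdmd between 0.50 and 0.66 and between 0.36 and 0.51. Gsdmd in jejunum at 24 h lay between 0.53 and 0.62 in WT and between 0.46 and 0.78 in KO, and it was 0.34 in KO without the arrays with Fabp6 above 5. It was not called under any alternative (limma adjusted p from 0.0647 to 0.336 in WT and 0.0657 to 0.515 in KO).

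Of the 6 member probe sets, the 3 called in WT colon at 24 h became 1 when only the compared groups were fitted, 2 without the low-signal filter, without the trend, with the array series as a term and with the replicate block, and 2 to 3 with 1 array left out. The 1 called in KO colon at 24 h became 0 without the low-signal filter, without the trend, with only the compared groups, with the array series as a term and in the fit with the replicate block, and 0 to 1 with 1 array left out. It became 2, Gsdmc2 and Gsdmd, with both WT 0 h replicate 2 and KO 0 h replicate 3 left out, and 2 without the 3 colon arrays that stood apart. Because the genes were chosen on these colon changes, and the removal of 3 arrays after the data were seen, nothing is read from these counts. Between genotypes in colon at 24 h, 0 became 1 (Gsdma, near the floor) without WT 24 h replicate 2 or without KO 24 h replicate 4. With the replicate block, Gsdmc2 at 24 h was -1.01 in WT and -1.29 in KO. Same-numbered arrays deviated together little (median r of 0.013 in colon and 0.017 in jejunum, over 0.1 in 18 and 22 of 65 pairs), so the block is no paired design, and the cause of the lost call was not tested.

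Signs turned for genotype differences near 0 in colon. With the array series as a term, Gsdmd was -0.065 at 6 h and -0.085 at 24 h and the Gsdmc2 and Gsdmc4 set 0.036 at 24 h, and that set was 0.10 without the 3 colon arrays that stood apart. With 1 array left out, Gsdmd ranged from -0.018 to 0.082 at 6 h and from -0.083 to 0.096 at 24 h, and that set from -0.14 to 0.10 at 24 h. The number of arrays, and signals near the floor for Gsdma and for gasdermin C in jejunum, limit what can be seen.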
